A study of Drosophila melanogaster with 10 samples.

Results

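Replication origin licensing is the loading of the Mcm helicase onto DNA before S phase, and 10 of its genes were followed across the arrays of an nbr knockdown in cultured Drosophila melanogaster cells. They are the helicase subunit genes Mcm2, Mcm3, dpa (which encodes Mcm4), Mcm5, Mcm6 and Mcm7, the origin recognition complex genes Orc1 and Orc2, and the loading factor genes Cdc6 and dup (double parked, the fly Cdt1). They were chosen by symbol, with earlier results of these data known. Each had 1 probe set annotated to it alone, and all 10 passed the filter on low signal, among 12375 named genes on the array and 7729 probe sets tested. DL1 cells, which take up double-stranded RNA (dsRNA) from the medium, were bathed in dsRNA against nbr or, as the control, against renilla, and were collected after 5 days at the same temperature. Both groups therefore received dsRNA and differ in its target. Each group had 5 replicates, described as independent in the series' design text, each on 1 Affymetrix Drosophila_2 array, and no other treatment or allele is named. The number of arrays limits the precision.

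In licensing, the origin recognition complex binds DNA, Cdc6 joins it, and Cdt1 brings in the ring of Mcm subunits, which stays inactive until S phase kinases switch it on. Geminin binds Cdt1 and prevents a second round of loading. Transcription of many of these genes is known to depend on E2F factors and to be highest around the entry into S phase, so their RNA is a common marker of cycling cells. The nbr gene encodes Nibbler, a nuclease known to shorten microRNAs from their 3' ends.

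The knockdown was seen on every treated array, where nbr was at 7.56 to 8.84 on the log2 scale against 11.16 to 11.48 on the control arrays (limma, Benjamini-Hochberg adjusted p = 0.000146). Of 12 markers of plasmatocytes, the phagocytic blood cells, 9 had a mean log2 level of at least 4, He, Pvr and crq among them, while Sr-CI, Cg25C and vkg were below it. The 4 muscle, 4 fat body and 4 germline markers were all below that level, as were 4 of 5 neuron markers (all but elav) and the glial marker repo. The glial marker moody and the ovarian soma markers tj and fs(1)Yb were above it. None of the 9 plasmatocyte markers tested, or of these others above the filter, passed for a treatment difference in limma (Benjamini-Hochberg adjusted p of 0.849 or more). Only 0.0259% of all tested probe sets passed. Across all tested probe sets nbr RNAi array 5 stood apart. The first principal component, with the group means taken out, held 57.5% of the variance and had its largest weight on that array.

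With each group's mean taken out, the licensing genes moved together from array to array. The correlations given below pool both groups, and none was computed in either group alone. The nbr RNAi arrays varied more for 9 of the 10 genes and so weigh more in them. On nbr RNAi array 2 all 10 genes had their lowest level of the 5 nbr RNAi arrays, and on nbr RNAi array 4 all 10 were among the highest 2. In the control group, arrays 3 and 4 were the lowest 2 for all 10 genes, and array 5 was above the group mean for all 10. The order was narrow for several genes. For Orc1 and Orc2 the deviations from the group mean were 0.0125 and -0.0646 on control array 4, against 0.0158 and -0.0599 on control array 1. Mcm6 was at -0.0123 on control array 3 against 0.0037 on control array 2. Cdc6 was at -0.1254 on nbr RNAi array 2 against -0.1129 on nbr RNAi array 1. Of the 7729 probe sets tested, 20.8% were lowest on nbr RNAi array 2, 33.4% were among the highest 2 on nbr RNAi array 4, and 14.6% had control arrays 3 and 4 as the lowest 2. Together these held for 100 probe sets (1.29%), the 10 licensing genes included. Control array 5 was not part of that count, and 39.7% of tested probe sets were above the group mean on it. These orders were picked out after the values were seen and are a description. In RNA from whole cultures, fewer cells in S phase and less of these RNAs per cell cannot be told apart.

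The helicase subunit genes are given first. Mcm2 (FBgn0014861) was at 9.41, 9.24, 9.06, 9.05 and 9.40 on control arrays 1 to 5 and at 9.61, 9.12, 9.38, 9.83 and 9.49 on nbr RNAi arrays 1 to 5, all log2 levels. The groups overlapped, since nbr RNAi array 2 fell among the lower control arrays, while 3 of 5 nbr RNAi arrays exceeded the highest control. Mcm5 (FBgn0017577) was at 8.82, 8.85, 8.70, 8.61 and 8.97 in the control group and at 9.24, 8.36, 8.94, 9.57 and 9.14 under nbr RNAi. Its nbr RNAi arrays spanned 1.21 log2 units against 0.36 in the controls, so that the treated group held both the lowest and the highest of its 10 values. Mcm7 (FBgn0020633) was at 11.38, 11.32, 11.18, 11.22 and 11.37 in the controls and at 11.61, 11.18, 11.55, 11.81 and 11.51 under nbr RNAi, where 4 of 5 arrays lay above every control and array 2 was at the level of the lowest one.

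For dpa (FBgn0015929) the control arrays were at 10.56, 10.33, 10.30, 10.18 and 10.48 and the nbr RNAi arrays at 10.52, 10.09, 10.46, 10.84 and 10.61. Its lowest value, too, was that of nbr RNAi array 2 and its highest that of array 4. Mcm6 (FBgn0025815) was at 11.68, 11.61, 11.59, 11.47 and 11.68 in the control group and at 11.86, 11.50, 11.73, 11.96 and 11.75 under nbr RNAi, with 4 of 5 treated arrays above every control. Mcm3 (FBgn0024332) had the smallest control SD of the 10 genes, 0.0254. Its control arrays lay within 8.57 to 8.63, and the nbr RNAi arrays were at 8.61, 8.56, 8.62, 8.82 and 8.91, with arrays 4 and 5 above the others. Unlike the other helicase genes, Mcm3 was highest on nbr RNAi array 5, the array that stood apart over all probe sets.

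Orc1 and Orc2 encode subunits of the complex that marks origins. Orc2 (FBgn0015270) was at 6.43, 6.45, 6.08, 6.42 and 7.06 on control arrays 1 to 5 and at 6.64, 6.38, 6.63, 7.13 and 6.91 on the nbr RNAi arrays. Control array 5 was 0.57 and nbr RNAi array 4 was 0.39 above its group mean, and only 1 treated array exceeded the highest control. Orc1 (FBgn0022772) was dim, at 4.61, 4.66, 4.44, 4.61 and 4.66 in the controls and at 4.62, 4.51, 4.60, 5.32 and 4.89 under nbr RNAi. Such levels lie close to the filter at 4, and nbr RNAi array 4 stood 0.53 above its group mean.

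The loading factor genes come last. For dup (FBgn0000996), which delivers the Mcm ring, the controls were at 10.29, 10.20, 9.96, 9.93 and 10.39 and the nbr RNAi arrays at 10.38, 10.09, 10.38, 10.69 and 10.38, so that 3 treated arrays were level with each other, array 2 was low and array 4 high. Cdc6 (FBgn0035918), an ATPase that binds the origin recognition complex, was at 10.25, 10.21, 10.10, 9.96 and 10.20 in the controls and at 10.26, 10.25, 10.33, 10.46 and 10.57 under nbr RNAi. Its groups just met, with nbr RNAi array 2 and control array 1 both at 10.25 and the other 4 treated arrays above every control. Like Mcm3, Cdc6 was highest on nbr RNAi array 5, and its nbr RNAi SD of 0.138 was the smallest of the 10 genes.

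**Figure D1:**
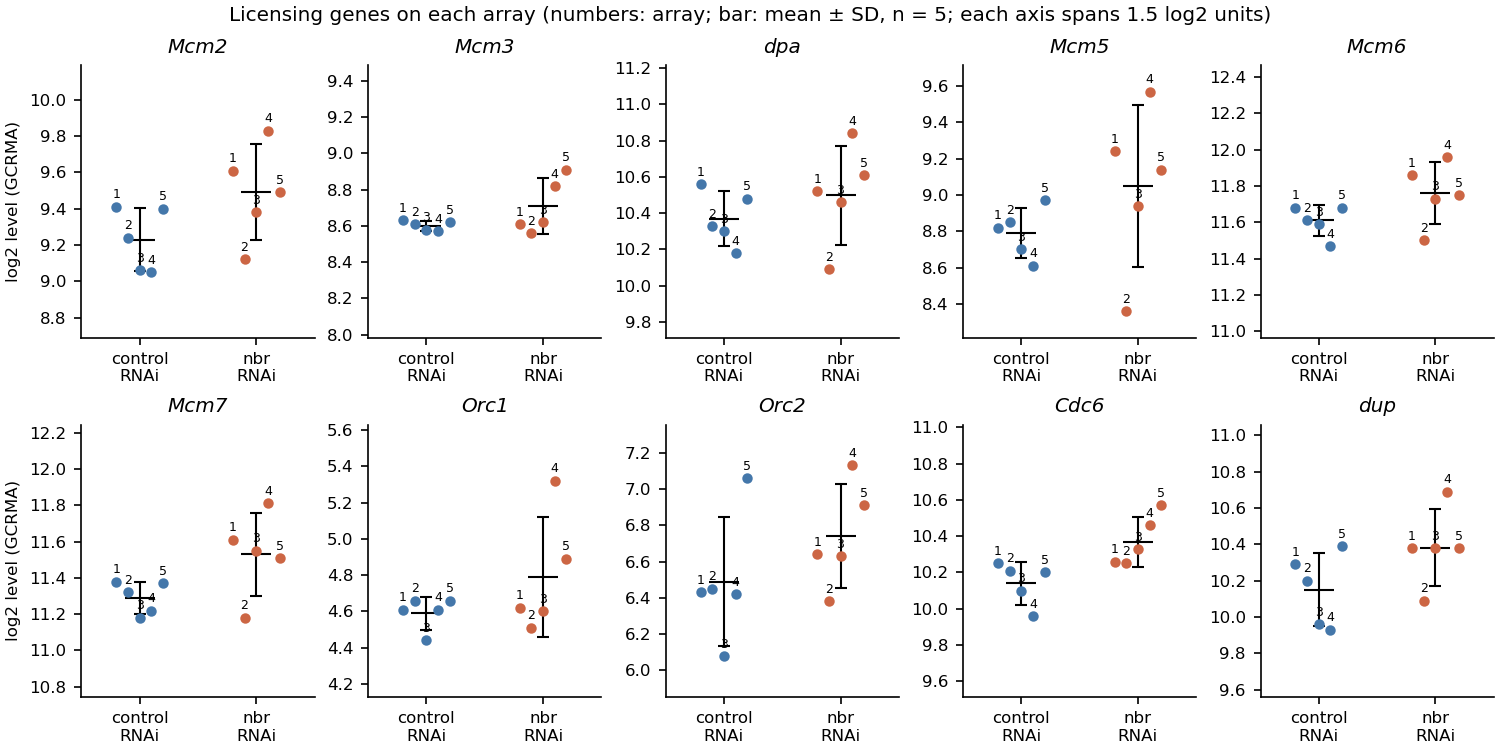
Log2 level of each of the 10 licensing genes on control RNAi arrays 1 to 5 (blue) and nbr RNAi arrays 1 to 5 (orange), with numbers naming the arrays and bars giving the mean ± SD (n = 5). Array 2 is the lowest nbr RNAi array in all 10 panels, and the groups overlap in each.

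Taking each group's mean out showed the shared pattern without the treatment difference. The mean deviation over the 10 genes was 0.078, 0.020, -0.129, -0.126 and 0.157 on control arrays 1 to 5, and 0.003, -0.328, -0.070, 0.311 and 0.085 on nbr RNAi arrays 1 to 5. The median deviation over the 10 genes ran from -0.323 on nbr RNAi array 2 to 0.322 on nbr RNAi array 4. Over all tested probe sets it stayed between -0.029 and 0.053 on every array. Over the 1789 tested probe sets of genes with a genomic span in the range of the licensing genes it stayed between -0.024 and 0.065. Quantile normalization holds a median over many probe sets near 0, so this flatness does not set the 10 genes apart. The medians over all tested probe sets and over those of like span were highest on nbr RNAi array 5, and the licensing genes were highest on array 4. The mean profile of the licensing genes had r = 0.224 with the first component of all probe sets and r = 0.809 with the second, which held 12.2% of the variance and had its largest weight on control array 5. These are correlations over the same 10 arrays and are given as a description.

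**Figure D2:**
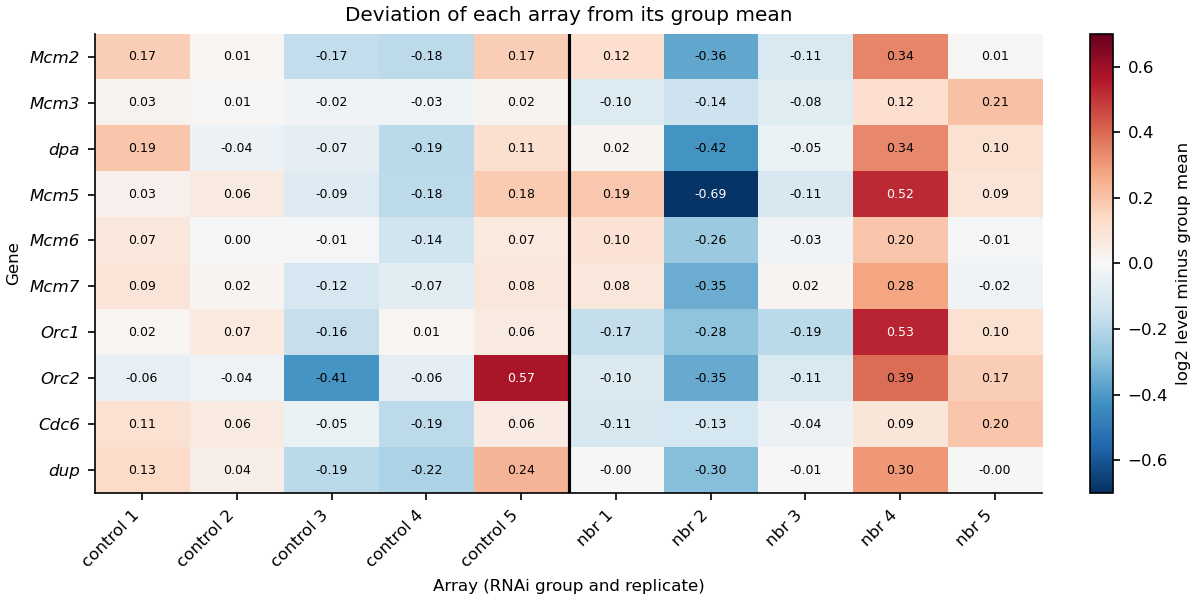
Log2 level minus the group mean for each licensing gene (rows) on each array (columns), with the line between control and nbr RNAi arrays. The columns of nbr RNAi arrays 2 and 4 carry 1 sign in all 10 rows, and the deviation of Mcm5 runs from -0.69 to 0.52.

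All 45 pairs of licensing genes had a positive within-group Pearson correlation over the 10 arrays. The median r was 0.749, the range 0.488 to 0.955, and the median Spearman's rho was 0.758. Among all 29864856 pairs of tested probe sets the median r was 0.025, with 51.7% of pairs above 0 and 5.61% at or above 0.749. That background was 0.037 over probe sets with a mean level in the range of the licensing genes and 0.063 over those with a genomic span in their range. In exact permutation tests that reordered 1 gene within each group (every order, 2-sided), 28 of the 45 pairs had p under 0.05, and 24 did after Benjamini-Hochberg adjustment over the 45 pairs, the largest p among these being 0.0235. Low p values were common among pairs at large. Of 2347785 pairs taken by setting every 25th tested probe set against all others, 14.2% had p under 0.05 and 8.22% had p at or under 0.0235, in either direction. With Spearman's rho 31 licensing pairs had p under 0.05 (11.3% of those pairs at large), and 26 passed the adjustment, with p up to 0.0267 (6.99% at large). The pairs share arrays and a normalization, and many share a gene, so they are not independent of each other.

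Mcm2 and Mcm6 had r = 0.948 (exact permutation p = 6.94e-05, the smallest these orders can give, and 0.00313 adjusted over the 45 pairs), with rho = 0.952 (exact permutation p = 6.94e-05, adjusted 0.00313). Without the 2 arrays farthest from the median of Mcm2, r was 0.877. Mcm5 and Mcm6 had the highest r, 0.955 (exact permutation p = 0.000417, adjusted 0.00375), and rho = 0.915 (exact permutation p = 0.00215, adjusted 0.00745), and r was 0.838 without the 2 farthest arrays. The median over the 15 pairs of Mcm genes was 0.929, and 10 of the 15 passed with adjusted p under 0.05 by r (11 by rho). By r the remaining 5 are the pairs of Mcm3, whose r with the other Mcm genes ran from 0.488 (Mcm6; exact permutation p = 0.354, adjusted 0.362) to 0.705 (dpa; exact permutation p = 0.0604, adjusted 0.0906). By rank the pair of Mcm3 and dpa did pass, with rho = 0.770 (exact permutation p = 0.00826, adjusted 0.0207), and that of Mcm3 and Mcm6 did not, with rho = 0.515 (exact permutation p = 0.246, adjusted 0.246). The r of Mcm3 moved with single arrays. Without the 2 arrays farthest from its median, nbr RNAi arrays 5 and 2, Mcm3 had r = 0.839 with dpa, 0.831 with Mcm5, 0.700 with Mcm6 and 0.863 with Mcm7. Its r with Mcm2 was 0.175 without nbr RNAi arrays 2 and 4, the farthest from the median of Mcm2. With the mean of the other 9 licensing genes Mcm3 had r = 0.695 over all arrays, 0.896 without nbr RNAi array 5 and 0.447 without arrays 2 and 4. With Cdc6, Mcm3 had r = 0.836 (exact permutation p = 0.000139, adjusted 0.00313) and rho = 0.879 (exact permutation p = 0.000208, adjusted 0.00313), and r = 0.699 without the 2 farthest arrays.

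Of the loading factor genes, the pair of dup and Mcm2 had r = 0.949 (exact permutation p = 0.000278, adjusted 0.00375) and rho = 0.976 (exact permutation p = 0.000278, adjusted 0.00313), with r = 0.891 without the 2 farthest arrays. By r, dup passed with every Mcm gene except Mcm3, where r was 0.539 (exact permutation p = 0.123, adjusted 0.150) and rho 0.661 (exact permutation p = 0.0329, adjusted 0.0549). Cdc6 had r from 0.497 (Mcm7) to 0.836 (Mcm3) with the other genes, and 1 of its 9 pairs passed after adjustment by r, that with Mcm3. By rho 3 did, those with Mcm3 (adjusted exact permutation p = 0.00313), dpa (0.0324) and Orc1 (0.0463). Cdc6 and dup themselves had r = 0.679 (exact permutation p = 0.0453, adjusted 0.0729) and rho = 0.685 (exact permutation p = 0.0462, adjusted 0.0671). Whether dup and Cdc6 differ in their correlation with the Mcm genes was not tested.

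Orc1 and Orc2 had r = 0.733 with each other (exact permutation p = 0.000903, adjusted 0.00451) and rho = 0.855 (exact permutation p = 0.0016, adjusted 0.00719), and r = 0.678 without the 2 farthest arrays. Over their 12 pairs with Mcm genes the median r was 0.726 (0.448 without the 2 farthest arrays), and 5 passed after adjustment by r, those of Orc2 with Mcm2, Mcm3, dpa, Mcm5 and Mcm7. By rho 4 passed, those of Orc1 and of Orc2 with Mcm3 and with dpa. Orc2 and dup had r = 0.829 (exact permutation p = 0.0059, adjusted 0.0148) and rho = 0.794 (exact permutation p = 0.00681, adjusted 0.018), with r = 0.650 without the 2 farthest arrays. By RefSeq's gene order (assembly Release 6 plus ISO1 MT), Orc1 and dpa are near each other on 1 chromosome arm with 5 genes between them. Their r was 0.765 (exact permutation p = 0.0450, adjusted 0.0729) and their rho 0.721 (exact permutation p = 0.021, adjusted 0.0379), and r was 0.407 without the 2 farthest arrays. Mcm7 and Cdc6, on another arm with 34 genes between them, had r = 0.497 (exact permutation p = 0.201, adjusted 0.221) and rho = 0.576 (exact permutation p = 0.114, adjusted 0.139).

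**Figure D3:**
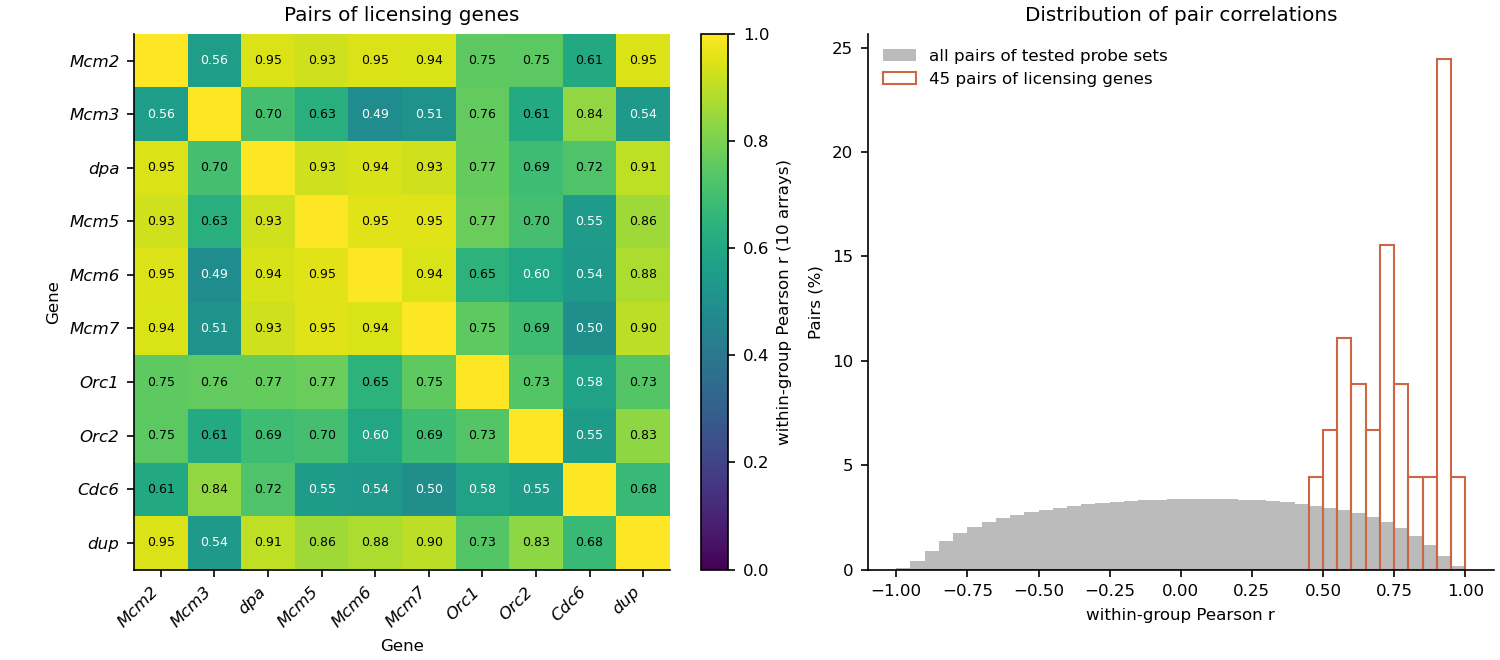
Left, within-group Pearson r over the 10 arrays for each pair of licensing genes. Right, the percentage of pairs in each interval of r for all pairs of tested probe sets (grey) and the 45 licensing pairs (orange), which start at 0.488.

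Much of the shared movement was on nbr RNAi arrays 2 and 4. When, for each pair, the 2 arrays farthest from the median of the first gene of a pair were left out, array 2 was among them for 42 pairs and array 4 for 36. The median r over the 45 pairs was then 0.689, with 44 pairs still above 0 and a range of -0.034 (Mcm6 with Orc1) to 0.964 (Mcm3 with Orc1). The Mcm2 and Mcm7 pair kept r = 0.915, and the 15 Mcm pairs had a median of 0.831. With nbr RNAi arrays 2 and 4 both left out for every pair, a choice made after the values were seen, the median r was 0.598. Then 42 pairs were above 0 and the lowest was at -0.108. Over all tested pairs in that setting the median r was 0.033 and the 95th percentile 0.829, above the licensing median. Without nbr RNAi array 5 the median r over licensing pairs was 0.818, and with the first principal component of all tested probe sets taken out it was 0.769.

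The nbr RNAi arrays varied more than the controls for 9 of the 10 genes, Orc2 being the exception. The median SD was 0.244 against 0.129 in log2 units, and the median ratio was 1.89. Over all tested probe sets the SD was larger in nbr RNAi for 67.8%, with a median ratio of 1.34.

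Against this array-to-array movement, no licensing gene passed the test for a difference between nbr RNAi and control RNAi. All 10 had a positive log2 fold change, from 0.10 for Mcm3 to 0.26 for Mcm5, with a median of 0.23. Over all tested probe sets the median was 0.006 and 52.9% were above 0. In limma 0 of 10 had a Benjamini-Hochberg adjusted p under 0.05 (0.0259% of all tested probe sets did, 0.0129% with a higher level), the adjusted p values ran from 0.849 to 0.904, and 2 of 10 had an unadjusted p under 0.05 (5.87% of all tested probe sets, 4.15% with a higher level), Cdc6 and Mcm7, both higher. For no gene did all 5 nbr RNAi arrays lie above all 5 controls, as they did for 0.75% of tested probe sets (0.97% counting both directions). Because the genes moved together, their 10 positive signs are not 10 separate observations. The mean over the 10 genes was 9.13 ± 0.126 in the controls and 9.33 ± 0.232 under nbr RNAi (SD, n = 5), a difference of 0.205 beside a range of 0.64 among the nbr RNAi arrays alone.

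The log2 fold change of Cdc6 was 0.23 (1.17-fold; standard error 0.078; 95% interval 0.06 to 0.40). Its limma Benjamini-Hochberg adjusted p was 0.849, and a 2-sided exact permutation test over every split of the arrays gave p = 0.0159, with all 5 treated arrays above the control mean. Mcm7 was at 0.24 (1.18-fold; 95% interval 0.01 to 0.46; limma adjusted p = 0.849; exact permutation p = 0.0635). Mcm5, whose nbr RNAi arrays varied most, was at 0.26 with a 95% interval of -0.16 to 0.68 (limma adjusted p = 0.876). The intervals of Mcm2 (-0.03 to 0.54), Mcm6 (-0.03 to 0.34), dup (-0.04 to 0.49), dpa (-0.15 to 0.42), Orc1 (-0.12 to 0.50), Orc2 (-0.16 to 0.66) and Mcm3 (-0.05 to 0.25) also held 0. These intervals all end under a doubling, which is 1 on this scale. The authors' deposited table heads its comparison as tmr against Renilla, and its fold changes equalled nbr over renilla arrays within 0.1% for 18951 of 18952 probe sets. In the authors' deposited table those of the 10 genes run from 1.07 for Mcm3 to 1.20 for Mcm5. Only Cdc6 of the 10 has a p-value under 0.05 there, at 0.0224, with a q-value of 19.5%. The share of all probe sets under 0.05 in that table was not counted.

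**Figure D4:**
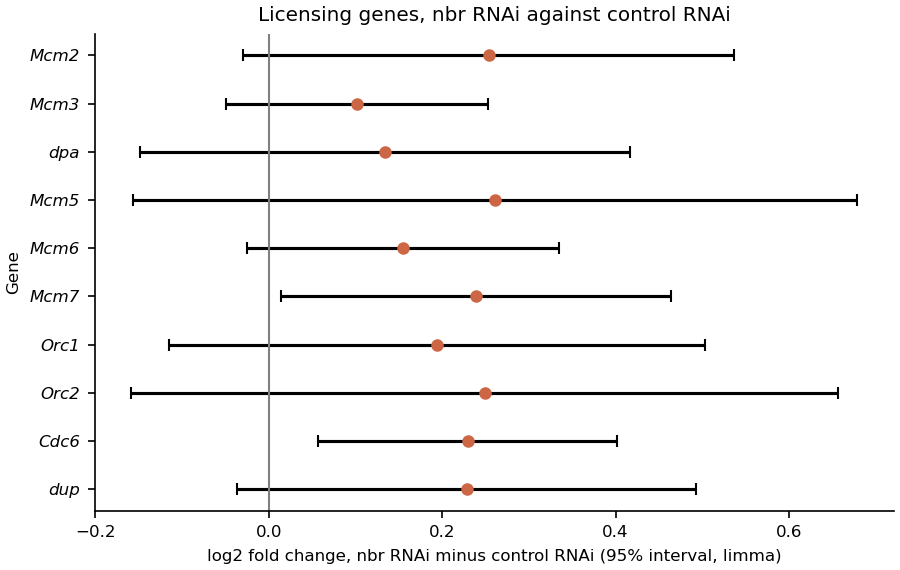
Log2 fold change of each licensing gene, nbr RNAi minus control RNAi, with the 95% interval from limma. All 10 points lie above 0, and the intervals of Cdc6 and Mcm7 alone exclude it, before any adjustment.

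Leaving out 1 array moved these differences. The median log2 fold change was 0.141 without nbr RNAi array 4. When array 2, the lowest nbr RNAi array for all 10 genes, was dropped instead, the median was 0.283. Then 7 of 10 genes had an unadjusted p under 0.05 (6.24% of all tested probe sets) and still 0 after adjustment in limma. Any other array left out alone gave from 1 to 4 of 10, the 4 being without control array 5 (9.08% of all tested probe sets). For Mcm5 the fold change went from 0.13 without nbr RNAi array 4 to 0.43 without array 2. Cdc6 ran from 0.18 without nbr RNAi array 5 to 0.26 without array 2.

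Other genes of DNA replication came from lists written by function, with earlier results of these data known. They were set against the mean profile of the licensing genes with the group means taken out. These correlations run over the same 10 arrays and are a description. Over the 7719 tested probe sets that are not members, the median r with that profile was -0.074, 42.7% had r above 0 and 0.881% had r of at least 0.8. Among 28 genes of the replication fork and nucleotide supply the median was 0.666 and 26 were above 0. PolE2, a subunit gene of DNA polymerase epsilon, was at 0.917, dnk, a deoxyribonucleoside kinase gene, at 0.90, PolD1, the catalytic subunit gene of DNA polymerase delta, at 0.869, and RPA1, which encodes a single-strand DNA binding protein, at 0.820. The sliding clamp gene PCNA was at 0.634, and the topoisomerase gene Top1 was at -0.572. None of the 28 passed for a treatment difference in limma (0.0259% of all tested probe sets did). The smallest p values in that list belonged to the thymidylate synthase gene Ts (log2 fold change 0.32), the primase gene Prim1 (0.36) and dnk (0.20), all with an adjusted p of 0.849 in limma (Benjamini-Hochberg), and 3 of the 28 had an unadjusted p under 0.05, all higher (4.15% of all tested probe sets were).

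The genes that switch the loaded helicase on were mixed. Among 13 tested members the median r with the licensing profile was 0.508, with 9 above 0 and 4 below it. Over tested probe sets that are not licensing genes 42.7% were above 0. Cdc45, which joins the Mcm ring to form the active helicase, was at 0.965, and mus101 (TopBP1 in vertebrates) at 0.859. The GINS subunit genes spread from 0.608 for Psf3 to -0.119 for Psf1 and -0.403 for Psf2, and the gene of the activating kinase Cdc7 was at -0.544. The cyclin gene CycE, at r = 0.797, had a log2 fold change of 0.25, hd 0.26 and Ctf4 0.19. None passed (limma, Benjamini-Hochberg adjusted p 0.849 to 0.997 over the 13), and only 0.0259% of all tested probe sets did. An unadjusted p under 0.05 was seen for 1 of the 13, against 5.87% of all tested probe sets.

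Of the remaining origin recognition and loading genes 5 were tested and none passed (0.0259% of all tested probe sets did). Orc6 had r = 0.715 with the licensing profile, Orc5 0.588 and Orc4 0.269, while geminin, the inhibitor of Cdt1, was at 0.443. The Mcm8 gene rec was at 0.844. Rec had a log2 fold change of 0.20, Orc5 0.08 and geminin -0.09 (limma, Benjamini-Hochberg adjusted p from 0.865 to 0.948). An unadjusted p under 0.05 was seen for 0 of the 5, against 5.87% of all tested probe sets.

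Outside the 10 genes, the probe sets with 1 symbol whose array pattern was most like theirs were Rif1 (r = 0.972), Cdc45, PolE2, spd-2 (0.901), dnk, CG13690 (0.899), Fas3 (0.897) and Nup35 (0.897). Rif1, known for a role in the timing of replication, was at 7.75, 7.75, 7.24, 7.35 and 7.84 in the controls and at 8.01, 7.31, 7.73, 8.42 and 8.18 under nbr RNAi. Its low arrays were control 3 and 4 and nbr RNAi 2, and its highest was nbr RNAi 4. The probe set of Fas3, a cell adhesion gene, differed from the rest of these. All 5 of its nbr RNAi arrays (5.87 to 6.76) lay above all 5 controls (5.23 to 5.64), as for 0.75% of all tested probe sets. Its log2 fold change was 0.80 (limma, Benjamini-Hochberg adjusted p = 0.356). A brighter probe set carries the same symbol and its values are not given here, so these values stand for 1 probe set and not for the gene. The groups of the other 7 overlapped. The likeness was measured over 10 arrays with the group means taken out.

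**Figure D5:**
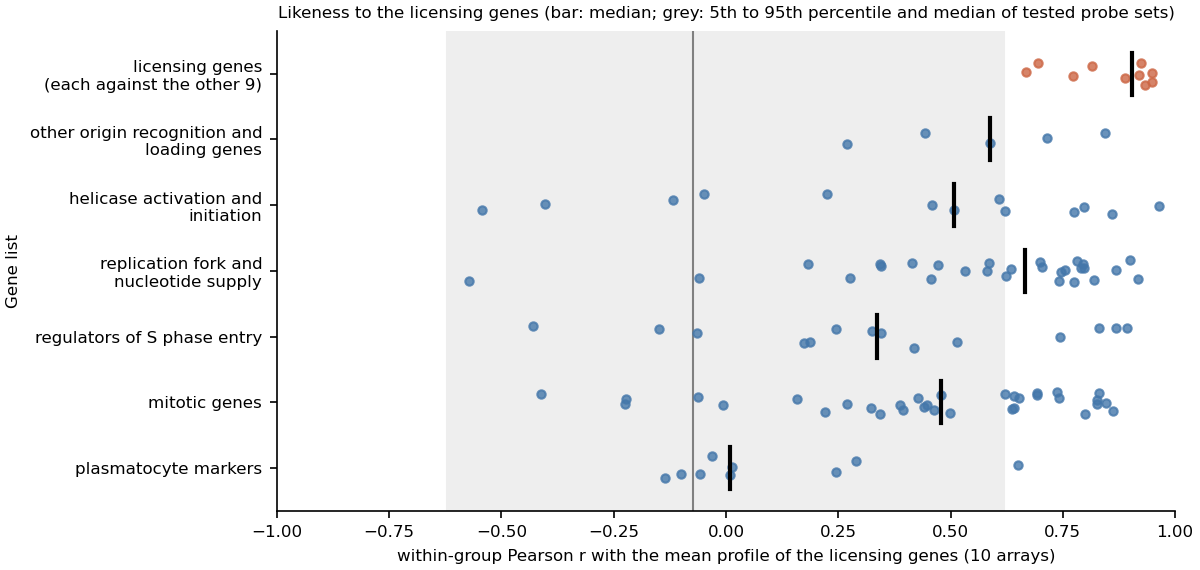
Within-group Pearson r of each gene with the mean profile of the licensing genes over the 10 arrays, by list, with the median as a bar and a grey band for the 5th to 95th percentile of other tested probe sets. Licensing genes (orange) are set against the mean of the other 9 and run from 0.668 (Cdc6) to 0.949 (dpa), and plasmatocyte markers have a median of 0.009.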

How the data were processed

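Cells were harvested 5 days after dsRNA was added, RNA was extracted with TRIzol and amplified with the Ovation Pico WTA system, per the labels' protocols. The deposited values are log2 levels per probe set, and the submitters' processing notes name GCRMA and Partek without versions or order. The authors' deposited statistics table, per the file headers, also holds for each probe set a signed fold change, a p-value, a score and a q-value (in percent). Its array values equalled the series' value table in 189520 of 189520 cells.

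The fit used limma 3.58.1 in R 4.3.3 (lmFit, eBayes, 2-sided, Benjamini-Hochberg adjustment over all 7729 probe sets with a mean of at least 4), as nbr RNAi against control RNAi with no block. Deviations from group means, correlations and exact permutation tests used Python 3.11.15, pandas 2.3.3 and numpy 2.4.6, and plots matplotlib 3.10.9. Scripts were tested on simulated data. Alternatives left out arrays, changed the filter or the normalization, weighted arrays or added a replicate block. The brightest tested probe set stood for a listed gene, and Orc3, Sld5 and E2f1 had none with 1 symbol. Named genes were the members, nbr, up to 3 genes per list with the smallest p, and the 8 probe sets most like the mean profile. Further list members quoted for their correlation were picked after their values were seen. Members and lists were chosen with earlier results of these data known. GCRMA ordinarily includes quantile normalization, which would hide a difference in total RNA. The pair test over probe sets at large was added after the data were seen. No batch is named in the labels.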

Additional observations from a re-analysis of the deposited data

Results flagged for a closer look

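Among the genes named here, 3 had 1 array far from the other 4 of its group, with a gap to the nearest array above 0.71 of the group's range. Orc1 was at 4.44 on control array 3, against 4.61 for the next lowest. Cdk4, a cyclin-dependent kinase gene, was at 12.45 on control array 5, against 12.36 for the next highest. Orc5 was at 9.42 on control array 2, against 9.59 for the next lowest. Chance gives such a gap in about 1 of 20 groups, and 68 groups were looked at.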

How the results depend on the processing

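The count of licensing genes called stayed at 0 in each of the 21 other fits and at an adjusted threshold of 0.1. It was 2 at an unadjusted p under 0.05 (5.87% of all tested probe sets). The median log2 fold change of the licensing genes stayed positive, between 0.141 and 0.283 when an array was left out, and was 0.162 with nbr RNAi array 5 and control array 3 dropped. With those 2 left out, 0 of the 10 had an unadjusted p under 0.05 in limma (6.34% of all tested probe sets did). With nbr RNAi arrays 2 and 4 left out instead, 5 of the 10 did (6.2% of all tested probe sets). The count over all probe sets was 4 with array weights and with median centring, and 1 when nbr RNAi array 5 and control array 3 were dropped or nbr RNAi arrays 2 and 4 were (the latter pair chosen after seeing the data), and it ran from 1 to 3 when an array was left out. The replicate numbers were not taken to pair the arrays: correlations of deviations between same-numbered arrays ran from -0.465 to 0.184 over all tested probe sets and from 0.019 to 0.376, all above 0, over the licensing genes, and 1 of 10 arrays correlated best with its own number. Under a replicate block 1 probe set was called, 0 licensing genes were, and the median r over licensing pairs was 0.884. The block also widened the background. The 95th percentile of r over all tested pairs was 0.901 with it and 0.764 without it, and the lowest licensing pair was at 0.113 with it. Without the block, the median r over licensing pairs lay between 0.658 and 0.818 when an array was left out. Genes near background, such as Orc1, limit what a small change can show.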

Other observations

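Mitotic genes partly shared the array pattern of the licensing genes, over the same 10 arrays and with the group means taken out. Of 33 tested, 28 had r above 0 with the licensing profile, with a median of 0.478 (over all tested probe sets that are not licensing genes, 42.7% were above 0 and the median was -0.074). CycB3 and CycB, both mitotic cyclin genes, were at 0.862 and 0.847, the cytokinesis genes tum and scra at 0.831 and 0.825, and the mitotic kinase gene aurB at 0.825. The checkpoint kinase gene Bub1 was at -0.412. None of the 33 passed for a treatment difference (0.0259% of all tested probe sets did). An unadjusted p under 0.05 was seen for 4, all higher, as for 4.15% of all tested probe sets. The smallest p values were those of fzr (log2 fold change 0.15), pav (0.25) and CycB3 (0.13), all with an adjusted p of 0.849 in limma (Benjamini-Hochberg).

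Regulators of S phase entry varied in their likeness to the licensing profile. Of 14 tested, 11 had r above 0 and 3 had r of at least 0.8. Over tested probe sets that are not licensing genes these shares were 42.7% and 0.881%. The retinoblastoma family genes Rbf and Rbf2 were at r = 0.893 and 0.830, Cdk4 at 0.869 and the E2F repressor gene E2f2 at -0.430, with a median of 0.336 over 14 genes. None passed. The cyclin E inhibitor gene dap had a log2 fold change of 0.16 and Cdk4 one of 0.13, and pic, a subunit gene of the ubiquitin ligase that degrades Cdt1 in S phase, was at -0.10, all with an adjusted p of 0.849 in limma. Of the 14 genes, 2 were higher and 1 lower at an unadjusted p under 0.05. Over all tested probe sets 4.15% were higher at that level, and 5.87% passed it in either direction.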
